A study of Mus musculus with 3 samples.

Results

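The 10 genes described here encode cytokine subunits of the IL-6 and IL-12 families and the 2 chains of the IL-6 receptor. They were chosen by mouse symbol, and all 10 were found among the 54331 features of the deposited table. Of them, 8 encode cytokine subunits (Il6, Il12a, Il12b, Il23a, Il27, Ebi3, Lif and Osm) and 2 encode receptor chains (Il6st and Il6ra). RNA was sequenced from RAW 264.7 cells, a male mouse macrophage line of BALB/c background, in 3 libraries, each from cells treated for 5 h with 100 ng/mL of LPS, a bacterial lipopolysaccharide sensed by TLR4. The control library carried a control shRNA and is labelled wild-type. The other 2 libraries are labelled GIV-depleted and carried 2 different shRNAs, 1 per library, against GIV (Girdin, gene Ccdc88a), a scaffold protein that modulates G proteins. They are called here by the sh1 and sh2 of their titles. Per its title, the series concerns how GIV dampens TLR4 responses of macrophages. No library without LPS was analysed here.

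Cytokines of the IL-6 family signal through gp130, the shared receptor chain encoded by Il6st, which activates JAK kinases and the transcription factor STAT3. IL-12 family cytokines are pairs of subunits that share partners: p40 (Il12b) joins p35 (Il12a) to make IL-12 or p19 (Il23a) to make IL-23, and EBI3 joins p28 (Il27) to make IL-27. In macrophages, LPS induces several of these genes through NF-kB and related factors, and AU-rich elements in their messages bind proteins that shorten mRNA life.

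Values are the authors' normalized counts, always given in the order control, library labelled sh1, library labelled sh2. Column totals lay between 47349097 and 49756670, and the commonest lowest value, about 1 read, was 0.931, 1.11 and 0.966. Ccdc88a, the targeted gene, had 2580, 1734 and 2561 normalized counts. The library labelled sh2, though labelled GIV-depleted, was thus at the control's level of Ccdc88a mRNA. Whether GIV protein was lower in it cannot be checked from these data. The normalized counts of the 10 genes are therefore given for each library separately, while counts over the pathway lists use both libraries. Of 8 macrophage markers, all were above 0, and 5 were lower in both libraries labelled GIV-depleted than in the control, as were 35.2% of the 13877 features tested below, with sums of 438748, 330912 and 353947. Summed markers of other cells were at most 404 for dendritic cells, 172 for B cells, 77.4 for neutrophils and mast cells, 12.3 for T and NK cells, 5.61 for fibroblasts and 4.45 for epithelial cells, and Cd3e, Trac, Ly6g, Flt3 and Epcam were listed at 0 throughout. Most of the dendritic cell sum was Xcr1 (383, 278 and 320), and most of the B cell sum was Pax5 (138, 160 and 113). S100a8 (68.8, 45.6 and 75.5) made up most of the neutrophil and mast cell sum. Mitochondrially encoded transcripts made up 1.43%, 0.995% and 1.14% of the totals, and the part of these differences in the results below was not tested.

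The sequences before the annotated starts of Il6, Il12b and Lif are shown because these genes had the largest differences among the 10. Each is the 250 bases before the start, 5′ to 3′ on the plus strand, from RefSeq on GRCm38.p6, and capitals mark matches to a motif. Il6 lies at chr5:30012864-30013113, Il12b at chr11:44399813-44400062 and Lif at chr11:4257318-4257567.
Il6: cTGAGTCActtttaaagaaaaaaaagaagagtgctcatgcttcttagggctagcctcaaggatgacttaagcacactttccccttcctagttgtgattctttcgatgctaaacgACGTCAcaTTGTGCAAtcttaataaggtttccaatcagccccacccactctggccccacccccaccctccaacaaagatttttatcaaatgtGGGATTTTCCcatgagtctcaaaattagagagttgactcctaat
Il12b: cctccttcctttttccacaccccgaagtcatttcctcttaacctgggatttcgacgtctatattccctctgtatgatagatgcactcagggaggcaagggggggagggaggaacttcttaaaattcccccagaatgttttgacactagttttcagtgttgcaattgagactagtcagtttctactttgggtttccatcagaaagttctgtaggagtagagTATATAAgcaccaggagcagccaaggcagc
Lif: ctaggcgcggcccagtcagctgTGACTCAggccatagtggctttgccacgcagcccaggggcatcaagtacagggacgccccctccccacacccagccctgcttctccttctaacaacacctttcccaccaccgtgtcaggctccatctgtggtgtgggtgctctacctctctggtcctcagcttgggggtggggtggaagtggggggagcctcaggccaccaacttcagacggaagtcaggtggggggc

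The Il6 sequence held 4 matches, to AP-1 (bases -249 to -243), the CRE core (-136 to -131), C/EBP (-128 to -121) and κB (-44 to -35). The CRE core and C/EBP matches did not overlap. The letters searched on both strands were TGANTCA for AP-1, TGACGT for the CRE core, TTNNGCAA for C/EBP, and the κB consensus and the interferon-stimulated response element (ISRE) by name, with TATANAA for a TATA box on the gene's own (sense) strand only. Among 32851 promoters of the same length, 6.75% held AP-1, 6.47% the CRE core, 9.56% C/EBP, 3.90% κB, 2.98% the ISRE and 6.58% the TATA box. Just 1 of the 32851, that of Il6, held all of the AP-1, CRE core, C/EBP and κB letters. The motifs were chosen after the promoter sequences had been seen, so this count supports nothing. Lif held 1 match, to AP-1 (-228 to -222), and Il12b 1 match, to the TATA box (-30 to -24). Ebi3 held 1 match, to κB (-44 to -35), while the windows of Il12a, Il6st and Il6ra held none. RefSeq promoters were matched for 7 of the 10 genes and not for Il23a, Il27 and Osm. A match is a description of letters, not of a bound site.

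**Figure D1:**
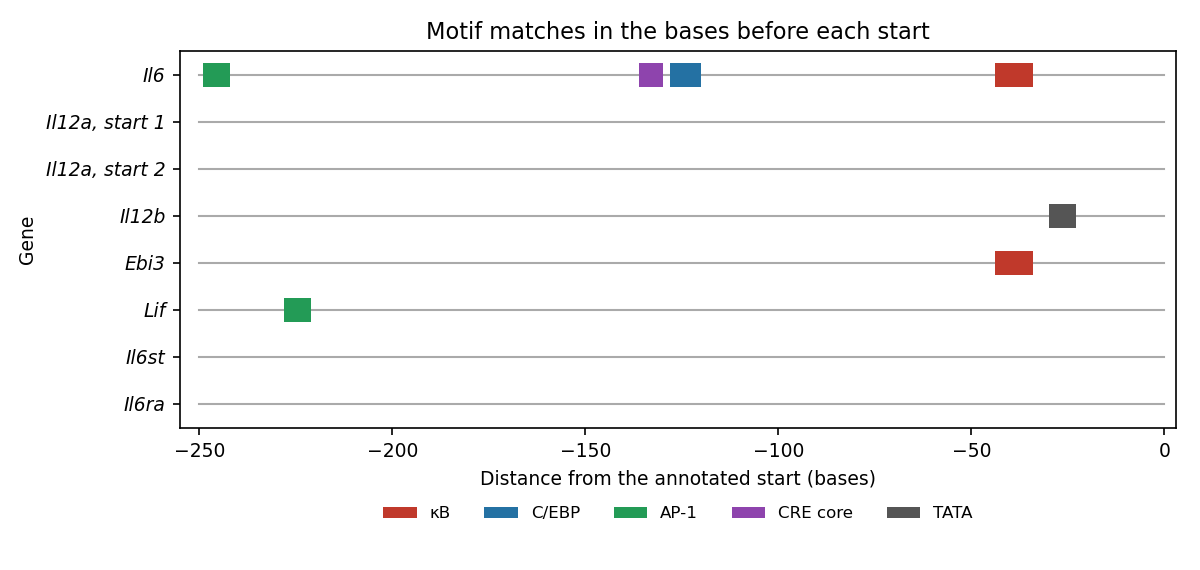
Motif matches (coloured blocks) along the 250 bases before each annotated start (x axis, bases), 1 line per start, with 2 starts for Il12a. Il6 has 4 blocks, Il12b, Ebi3 and Lif have 1 each, and the other starts have none.

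AU-rich pentamers (ATTTA) were dense in the 3′ untranslated regions of most of the cytokine genes. In the GENCODE M21 principal transcripts Il27 had 17.5 per kb, Il6 14.1, Il12a 12.2, Il23a 9.13, Il12b 7.75 and Osm 5.90, against a median of 1.31 per kb over 11409 tested genes. Densities as high as that of Il27 were found in 0.272% of those genes, and as high as that of Il6 in 0.403%. The value of Il6 rests on the transcript used, since the longest protein-coding one, with 1668 bases of 3′ untranslated region in place of 427, gave 6.00 per kb, a density reached by 4.05% of tested genes. Ebi3 (4.08 per kb), Lif (2.20) and the receptor chains Il6st (1.60) and Il6ra (0.544) were less dense. The 30-base windows with the most pentamers are shown for Il6 (chromosome 5), Il27 (chromosome 7) and Lif (chromosome 11), in capitals where ATTTA stands. No relation between this density and the difference from the control was tested.
Il6: tttaattatttttaATTTAttgataATTTA
Il27: ccagatATTTAtttcttggatATTTATTTA
Lif: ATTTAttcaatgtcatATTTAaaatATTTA

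Transcripts of Il6, the founding cytokine of the family and a driver of the acute-phase response, were higher in both libraries labelled GIV-depleted. Il6 (ENSMUSG00000025746.11, chromosome 5, 30013114 to 30019981, GRCm38) had 1957 normalized counts in the control library, 6114 in that labelled sh1 and 8985 in that labelled sh2. Both libraries lay above the single control, at 3.12 times and 4.59 times its value. In such bulk RNA, more cells that express a gene and more of its RNA per cell cannot be told apart. On the log2(value + 1) scale the difference was 1.64 for the library labelled sh1 and 2.20 for the library labelled sh2. Of the 13877 features tested, those whose values averaged 10 or more, 1.73% had a larger difference in the library labelled sh1 and 1.33% in the library labelled sh2. The mean of the 2 differences was 1.92 (SE 0.27) and did not pass in limma (adjusted p = 0.28). The principal Il6 transcript has 1141 bases and 35.7% GC, and with a trend of the difference with transcript length and GC content removed its difference was 2.02, or 1.87 with the longest transcript of every gene (2343 bases for Il6).

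**Figure D2:**
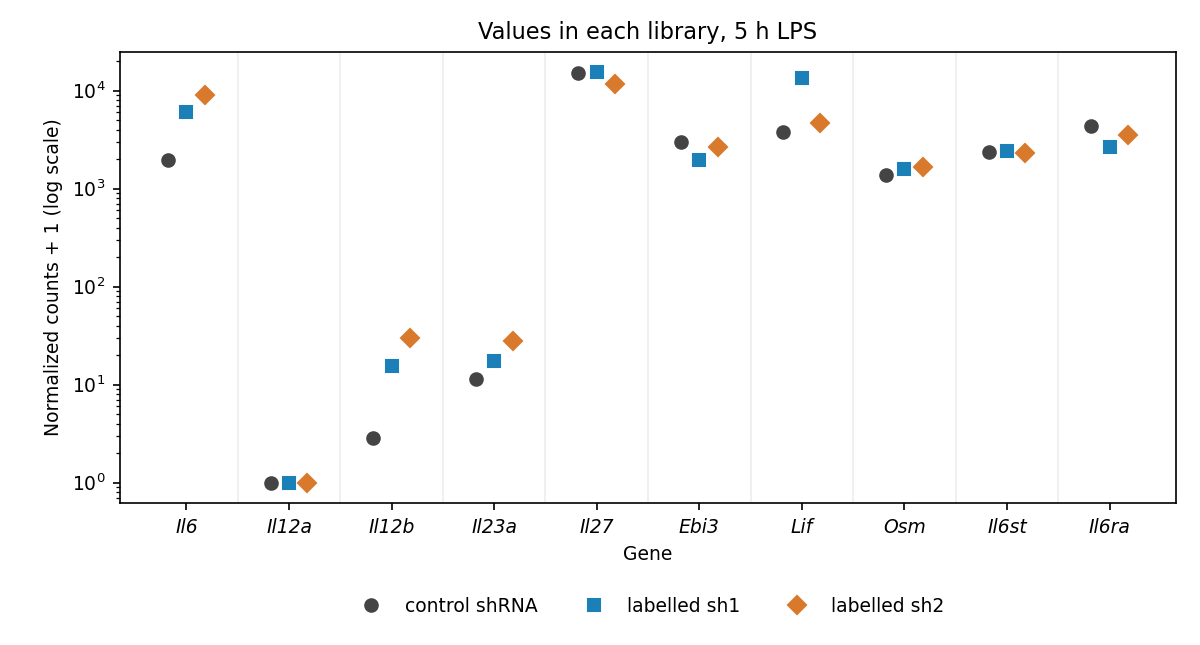
Normalized counts plus 1 (y axis, log scale) of the 10 genes (x axis) in each of the 3 libraries, 1 point per library and no error bar because each is a single library. The control point of Il6 lies at 1957 normalized counts, below 6114 and 8985, and Il12a is at 0 in all 3.

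Il12b, which encodes the p40 subunit shared by IL-12 and IL-23, was at about 2 reads in the control and low in the other libraries. Il12b (ENSMUSG00000004296.14, chromosome 11, 44400063 to 44414033) had 1.87, 14.5 and 28.8 normalized counts. Divided by the value of 1 read these are about 2, 13 and 30 reads, so the ratio to the control was 7.73 (95% exact interval 1.76 to 70.8) for the library labelled sh1 and 15.4 (3.95 to 134) for the library labelled sh2. These intervals treat rounded reads as counts and cover counting error only. On the log2(value + 1) scale the differences were 2.43 and 3.38, and their mean was 2.90 (SE 0.71), which did not pass in limma (adjusted p = 0.57). With quantile normalization the difference over both was 2.04.

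Il23a, which encodes p19, the partner of p40 in IL-23, was also at a low level. Il23a (ENSMUSG00000025383.2, chromosome 10, 128296139 to 128298752) had 10.4, 16.6 and 26.8 normalized counts, or about 11, 15 and 28 reads. Its ratio to the control was 1.59 (95% exact interval 0.699 to 3.92) for the library labelled sh1, within counting error of no difference. For the library labelled sh2 the ratio was 2.58 (1.27 to 5.88). Over both libraries the log2 difference was 0.96 (SE 0.58) and did not pass in limma (adjusted p = 0.79).

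Il12a, which encodes p35, the partner of p40 in IL-12 itself, was listed at 0 in all 3 libraries (ENSMUSG00000027776.12, chromosome 3, 68690644 to 68698547). No fold can be given for it. The low p40 and p19 messages thus stood beside a p35 message listed at 0 in the control and in both libraries labelled GIV-depleted.

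Both subunits of IL-27, a cytokine that acts on T cells, were abundant, and the highest ratio to the control was 1.02, for Il27 in the library labelled sh1. Il27, which encodes p28 (ENSMUSG00000044701.5, chromosome 7, 126589010 to 126594941), had 15211, 15492 and 11738 normalized counts. The control lay between the other 2 libraries, with log2 differences of 0.03 and -0.37. Ebi3 (ENSMUSG00000003206.7, chromosome 17, 55952640 to 55957022) had 3002, 1965 and 2686. Both libraries labelled GIV-depleted lay below the control, at 0.655 times and 0.895 times its value. Averaged over the pair, the difference was -0.17 (SE 0.21, adjusted p = 0.88 in limma) for Il27 and -0.39 (SE 0.24, adjusted p = 0.79) for Ebi3. Per transcript length the level of Il27 was 5.73 times that of Ebi3 in the control, 8.91 times in the library labelled sh1 and 4.94 times in the library labelled sh2. On the opposite strand Il27 overlaps Apobr (10822, 9385 and 9567 normalized counts) and Ebi3 overlaps the antisense gene Gm16712 (91.2, 111 and 96.7). The library kit keeps strand, but whether the counting used it is not stated in the labels or the file, so reads of such pairs may not be separable.

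Lif, a gp130 cytokine that also needs the LIF receptor, was high in 1 library. Lif (ENSMUSG00000034394.14, chromosome 11, 4257557 to 4272514) had 3760 normalized counts with the control shRNA, 13544 in the library labelled sh1 and 4637 in that labelled sh2. The library labelled sh1 was at 3.60 times the control and at 2.92 times the library labelled sh2, which was at 1.23 times the control. Between the 2 libraries labelled GIV-depleted, Lif was the 1 gene of the 9 tested here to differ by at least 2-fold, as did 2.59% of all tested features in the same direction and 3.65% in the other. The log2 difference over both libraries, 1.08 (SE 0.68), did not pass in limma (adjusted p = 0.80). A comparison of these 2 libraries has 1 library a side and no test.

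Osm, which encodes oncostatin M and lies next to Lif on chromosome 11 (ENSMUSG00000058755.3, 4236420 to 4241026), did not share that pattern. It had 1394, 1592 and 1680 normalized counts, with both libraries labelled GIV-depleted just above the control. The difference was 0.23 (SE 0.15, adjusted p = 0.80 in limma), with 0.19 for the library labelled sh1 and 0.27 for the library labelled sh2.

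Neither receptor chain was 2-fold higher or lower in either library. The same held for most tested features. In the library labelled sh1, 3.98% were 2-fold higher and 2.94% lower, and in that labelled sh2, 4.78% and 2.54%. Il6st, the gp130 chain (ENSMUSG00000021756.12, chromosome 13, 112464070 to 112510086), had 2351, 2408 and 2334 normalized counts, so the 3 libraries lay within 0.05 of each other on the log2 scale. Its difference of 0.01 (SE 0.13, adjusted p = 0.99 in limma) turned to -0.02 with quantile normalization and to -0.21 with the length and GC trend removed. Il6ra, the chain that binds IL-6 itself (ENSMUSG00000027947.11, chromosome 3, 89864059 to 89913196), had 4410, 2684 and 3562. Both libraries labelled GIV-depleted lay below the control, at 0.609 times and 0.808 times its value. The log2 difference was -0.51 (SE 0.22) and did not pass in limma (adjusted p = 0.73), and 7.83% of all tested features had a lower one.

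**Figure D3:**
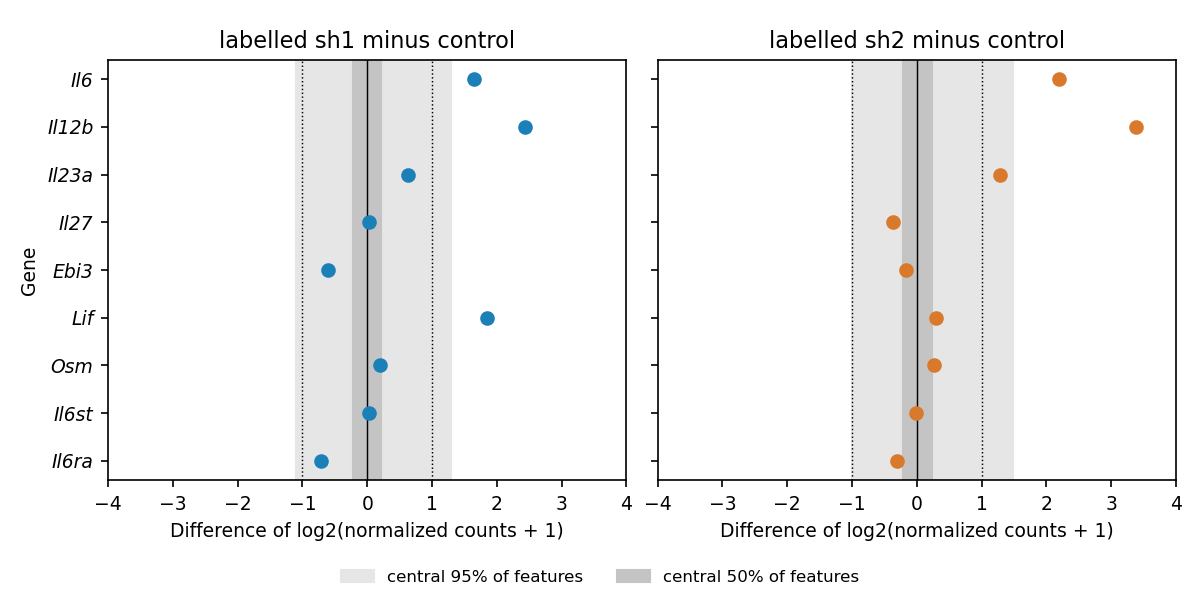
Difference from the control on the log2(normalized counts + 1) scale (x axis) for the 9 tested genes, for the library labelled sh1 (left) and the library labelled sh2 (right), with grey bands for the central 50% and 95% of 13877 tested features and dotted lines at 2-fold. Il6 and Il12b lie outside the 95% band in both panels, and Lif only in the left one. Il12b was tested only because it was high in the libraries labelled sh1 and sh2, so its place outside the band supports nothing.

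Counted over the family, 2 of the 9 tested genes, Il6 and Il12b, were at least 2-fold higher in both libraries labelled GIV-depleted, a rule met by 2.31% of the 13877 tested features. Il12b reached the mean of 10 needed for testing only through the 2 libraries where it was high, so its being tested and its being counted as higher are tied. The counts and the median of the 9 that include it are a description and support nothing. In the library labelled sh1 alone there were 3 (Il6, Il12b and Lif), against 3.98% of all tested features. In the library labelled sh2 alone there were 3 (Il6, Il12b and Il23a), against 4.78%. None of the 9 was 2-fold lower in both libraries (0.922% of tested features) or in either one, a difference seen in 2.94% of tested features for the library labelled sh1 and 2.54% for the library labelled sh2. By any size, 5 exceeded the control in both libraries (34.9% of tested features), 2 lay below it in both (35.2%) and 2 were mixed. The 2 comparisons share the control library, so they are not independent of each other. None of the 9 passed an adjusted p of 0.05 in limma, as did 0.00% of tested features. At an unadjusted p under 0.05, 2 of the 9 were higher (Il6 and, with the same limit, Il12b), with 4.52% of tested features, and 0 lower, with 2.42%. The median log2 difference was 0.23 over the 9 (0.19 for the library labelled sh1 and 0.27 for the library labelled sh2), and -0.0015 over all tested features.

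Levels of different genes were compared per kb of the principal transcript, scaled to 1000000 per library. In the control the order was Il27 (618), Ebi3 (108), Il6 (71.2), Il6ra (54.7), Lif (38.7), Osm (25.5), Il6st (11.2), Il23a (0.317) and Il12b (0.0399). With a single control library, neighbours in that order cannot be told apart by replicate spread. Il6 stood at rank 2083 of 13860 protein-coding genes in the control, at 702 of 13907 in the library labelled sh1 and at 420 of 14058 in the library labelled sh2. On this per-length scale it passed Ebi3 to become the second of the 10 genes in both libraries labelled GIV-depleted, with 227 and 348. Il27 stayed the first of the 10, with 643 and 507, at ranks 246 and 295. Lif, with 142 and 50.8, overlapped Ebi3, with 72.1 and 103, whereas Il6ra (34.0 and 47.0) lay above Osm (29.7 and 32.6) in both libraries. The ratio of gp130 to the IL-6-binding chain per length was 0.205 in the control, 0.346 in the library labelled sh1 and 0.252 in the library labelled sh2. The order depends on the transcript, and the principal one was adopted after values with the longest had been seen. With the longest transcript of every gene, the control order was Il27 (691), Ebi3 (121), Lif (43.3), Il6 (38.7), Osm (28.5), Il6ra (23.7) and Il6st (12.6). On that length Il6 came behind Il27 and Lif in the library labelled sh1, with 124 against 159 for Lif, and second in the library labelled sh2, with 189, while Il6ra lay below Osm in all 3. The receptor ratio then was 0.531 in the control, 0.893 in the library labelled sh1 and 0.652 in the library labelled sh2.

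**Figure D4:**
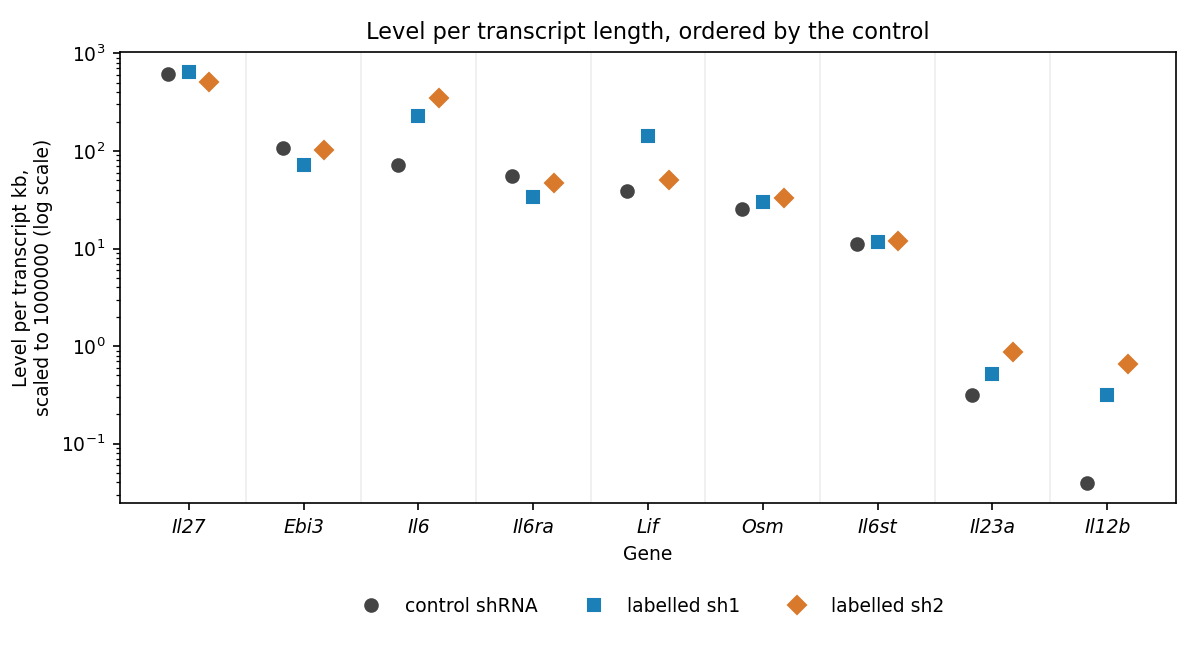
Level per kb of principal transcript, scaled to 1000000 (y axis, log scale), for the 9 genes above 0 (x axis, ordered by the control), 1 point per library. Il27 is the highest in all 3 libraries, and Il6 moves from 71.2 in the control to 227 and 348.

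Other genes of the pathway were taken from 6 further lists, and none of their tested genes passed an adjusted p of 0.05 in limma. Among the 6 other ligands of the family, 3 were tested, and Clcf1, a ligand of the CNTF receptor, was at least 2-fold higher in both libraries, with 3.76, 24.0 and 18.9 normalized counts. That rule was met by 2.31% of all tested features. The control value of Clcf1 stands for about 4 reads, and it was tested only because it was high in the other 2 libraries. Cntf, another ligand of that receptor, had 103, 96.8 and 15.4, and so was low in the library labelled sh2. Il11 had 9.30, 15.5 and 7.78, and Ctf1 had 0.546, 0 and 1.65. Of the 9 other receptor chains 4 were tested, and none was 2-fold higher in both libraries or 2-fold lower in both. Most tested features were neither, with 2.31% higher and 0.922% lower. Il11ra1, the IL-11-binding chain, had 159, 116 and 115. Osmr, the oncostatin M receptor chain, had 35.7, 80.3 and 17.1, with the control between the other libraries. Its log2 differences were 1.15 for the library labelled sh1 and -1.02 for the library labelled sh2, beyond 2-fold in opposite directions. Il12rb1, a chain shared by the IL-12 and IL-23 receptors, had 41.2, 26.4 and 40.1.

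No tested JAK-STAT or receptor-shedding gene was 2-fold higher in both libraries or 2-fold lower in both. Only 2.31% and 0.922% of all tested features met these rules, so this says little about 10 genes. Of 10 tested JAK-STAT and receptor-shedding genes, 2 exceeded the control in both libraries (34.9% of all tested features did) and 4 lay below it in both (35.2%), with a median of -0.06 beside -0.0015 over all tested features. Stat3, the main factor activated by gp130, had 13811, 14890 and 15770 normalized counts. Socs3, which binds gp130 and limits its signal, had 44836, 49717 and 29363, with the control between the other libraries. Of 8 genes known to respond to STAT3, 2 exceeded the control in both libraries and 5 lay below it in both, beside the same 34.9% and 35.2%, with a median of -0.19, Socs3 and Fos being in 2 lists each. Il1rn, the IL-1 receptor antagonist, had 177041, 253373 and 226525, while Mcl1, a survival factor, had 29805, 28148 and 27004.

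A list of 13 transcription factors was taken as acting on Il6, Il12b or Il23a, which was not tested here. Of them, 4 exceeded the control in both libraries and 7 lay below it in both, beside 34.9% and 35.2% of all tested features. Their median was -0.17. Batf, an AP-1 family factor, was the 1 member at least 2-fold higher in both, with 0.932, 339 and 578 normalized counts. Its control value is about 1 read, so that it too was tested only through the other 2 libraries, and 2.31% of all tested features met that rule. Nfkb1, an NF-kB subunit, had 31485, 33120 and 30446, and Nfkbiz, a nuclear co-factor needed for Il6 induction, had 21628, 27374 and 21200. Atf3, a repressor of several cytokine genes, had 10029, 10962 and 11882. Cebpd, named after its values were seen, had 10033, 7870 and 3592.5. Of the 6 regulators of mRNA stability, 2 lay above the control in both libraries and 2 below it in both, with a median of 0.01, and these shares are near the 34.9% and 35.2% of all tested features. Zfp36, a protein that binds AU-rich elements, had 54625, 52403 and 43407, Zc3h12a, an endonuclease that cleaves Il6 mRNA, had 5972, 5858 and 5054, and Elavl1 had 5228, 6136 and 5715.

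**Figure D5:**
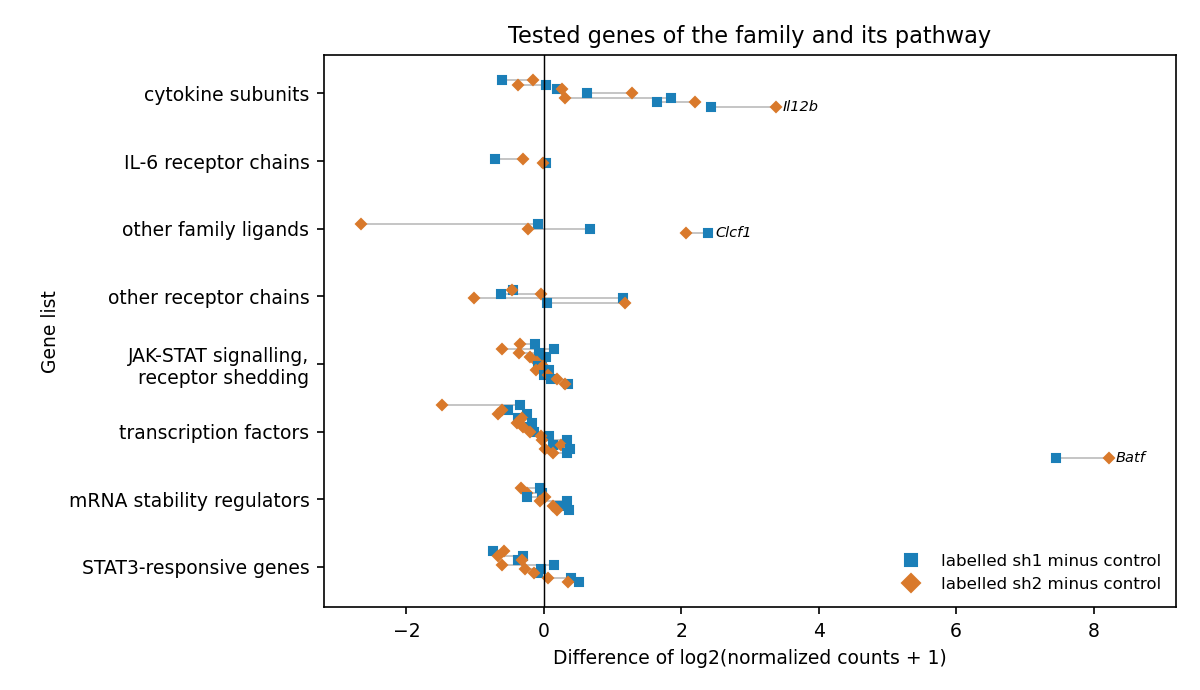
Difference from the control on the log2(normalized counts + 1) scale (x axis) for every tested gene of the family and of 6 pathway lists (y axis), with squares for the library labelled sh1, diamonds for the library labelled sh2 and a line joining the 2 values of a gene. In the 6 pathway lists, Clcf1 and Batf are more than 2-fold higher in both libraries, and Osmr lies beyond 2-fold in opposite directions. Clcf1 and Batf were tested only through the 2 libraries where they were high.

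Among 10381 other protein-coding genes above 0 in every library that averaged 50 or more, the 5 nearest to Il6 by Euclidean distance of the 2 log2 differences were Tent5c, Camta1, Plod2, Tpr and Pitpnc1, at distances from 0.108 to 0.252. This likeness rests on 2 differences that share 1 control. Tent5c had 33.4, 115 and 159 normalized counts, and Tpr, the most abundant of the 5, had 5397, 17843 and 21103. None of the 5 is a cytokine gene, and nothing about shared control follows from the distance.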

How the data were processed

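Stranded mRNA libraries (TruSeq Stranded mRNA kit, per the labels' protocols) were made from 3 RAW 264.7 cultures. The labels do not say whether these were independent experiments. A p-value here reflects only how the libraries vary, which may be technical. The authors deposited normalized counts with 1 column per library, here handled as a non-negative signal. Per the submitters' processing notes, the tools named are Salmon, DESeq and DESeq2 and the build is GRCm38, with no versions or roles. Between 75.1% and 78.9% of low values (under 50 times the commonest lowest value) lay within 0.1 of a whole multiple of it. This was not enough to rebuild read counts, and no count model was fitted across the features. The exact intervals of Il12b and Il23a are the exception, since they treat values rounded to whole reads as counts.

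Identifiers were matched to GENCODE M21 (GRCm38), and 54097 of 54331 had a symbol. Length, GC content and 3′ untranslated region came from the principal (APPRIS and CCDS, then longest) transcript. The longest transcript was used first and replaced after its values had been seen, and is kept as an alternative chosen after seeing the data. Features averaging 10 or more (13877) were tested on log2(value + 1), which understates the change of low genes, with limma 3.58.1 in R 4.3.3 (variance trend, two-sided, Benjamini-Hochberg), after the fit was tested on simulated data. The fit has 1 residual degree of freedom, so that the single control borrows its spread from the pair labelled GIV-depleted. For 1 library a side a 2-fold rule was used, with no test. The 10 genes and all lists were chosen with earlier results of these data known. Named in the text are the 10 genes, list members at least 2-fold higher or lower in both libraries, up to 3 other list members with the highest mean value, and the 5 genes nearest to Il6; some items that this rule would name are not reported here. Alternatives covered the pseudocount, the filter, 5 scalings or trend removals and, besides these, the trend removal with the longest transcripts. They also covered leaving out a library, another fold rule and a fit with no variance trend.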

Additional observations from a re-analysis of the deposited data

How the results depend on the processing

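No paired analysis was possible because there is 1 control library, and the sh1 and sh2 of the titles name shRNAs, not replicates. Among the 9 tested genes, none passed an adjusted p of 0.05 in limma under any of the 11 refitted alternatives, and for Il6 the adjusted p ranged from 0.0698 to 0.571 and the log2 difference from 1.87 to 2.02. Il12b, resting on about 2 reads in the control, ranged from 1.90 to 3.14. The number of features that passed in limma, 0 as reported, was 1 with a mean value of at least 50, with equal totals and with trimmed mean scaling, 12 with the length and GC trend removed, and 35 with that trend taken from the longest transcripts, an alternative chosen after seeing the data. In the latter Il6ra was at -0.68. With a mean value of at least 50, Il12b and Il23a were not tested, which left 1 gene at least 2-fold higher in both libraries and 1 in the library labelled sh2. The sign of Il6st turned with quantile normalization (-0.021), with the length and GC trend removed (-0.21, or -0.20 with the longest transcripts) and without the library labelled sh1 (-0.010, against 0.035 without the library labelled sh2). The sign of Il27 turned without the library labelled sh2 (0.026, against -0.37 without the library labelled sh1). Ordered by level per kb, Il6 was the third of the 10 genes in the control and the second in the library labelled sh1, and with the longest transcripts it was the fourth and the third. Leaving out the library labelled sh1 or that labelled sh2 gave 3 genes at least 2-fold higher and 0 lower. Leaving out the control allows no comparison. The other results of the 9 genes kept their sign under every alternative run. With a 1.5-fold rule in place of the 2-fold one, 3 of the 9 genes were higher in both libraries and 0 were lower in both. In the library labelled sh1 4 were higher, and in that labelled sh2 3. Ebi3 (log2 difference -0.61) and Il6ra (-0.72) were past 1.5-fold lower in the library labelled sh1. The share of all tested features at 1.5-fold was not counted, so these counts support nothing. Low counts limit the values of Il12b, Clcf1 and Batf, whose controls stand for a few reads.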
